A study of Mus musculus with 5 samples.

Results

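The actin cytoskeleton and its anchorage to the matrix were examined in lungs of bleomycin-treated mice through 46 genes of actin assembly, cross-linking, focal adhesion and unconventional myosins. The genes were chosen by name, as families of the actin machinery whose symbols begin or match in set ways (Arpc, Actr, Actn, Myo, Capz, Pfn, Cfl, Fln, Diaph, Pdlim, Tln, Was and single genes such as Vcl, Gsn and Tpm3), with earlier results of these data known. The platform annotation held 68 such genes. Values on 4 or more of the 5 arrays were required, and 46 genes met this, among the 10081 genes and unnamed features analysed.

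Each of the 5 2-colour arrays carried amplified lung RNA of 1 bleomycin-treated 129svJ mouse in channel 1 and a pool of amplified lung RNA from control 129svJ mice in channel 2. Bleomycin is an antitumour antibiotic that breaks DNA and is used in mice as a model of lung injury and fibrosis, and 129svJ is an inbred strain. The 5 mice form 1 group and the pool is the single control sample. The sources used here do not give dose, route, time, age, sex, dyes, scanner or how many mice were pooled.

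The values are log2 ratios of the 2 channels, centred on the median of each array, and a gene is called past the threshold when limma's test of its mean against 0 gave a Benjamini-Hochberg adjusted p under 0.05 over all 10081. Which channel stands on top of the ratio is not settled. The titles name the bleomycin mouse before the pool, but no source gives the dyes, and the cell type markers do not settle it. Past the threshold, 12 of 19 leukocyte markers lay below 0 and 1 above 0, against 23.9% and 25.8% of all genes and unnamed features. Past it, 9 of 11 endothelial markers lay above 0 and 0 below. Lung epithelial markers were divided, with 10 of 20 past the threshold above 0 and 3 below, among them Krt18 at −1.54. Values are therefore given as below or above 0, without saying whether mouse or pool was higher. The log base is not stated either, and with natural logarithms the folds would be larger. For example, a difference of 2.56-fold for Cfl2 would be 3.88-fold. A ratio also cannot tell fewer cells of a type from less RNA per cell, nor show how strongly a gene is expressed.

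As background, cells push their membranes forward by assembling actin filaments. The Arp2/3 complex starts new branches on older filaments when activated by proteins of the WASP, WAVE and WASH groups, while formins and Ena/VASP proteins lengthen unbranched filaments. Profilin and beta-thymosins hold actin monomers, capping protein closes fast-growing filament ends, and cofilin and gelsolin cut filaments. Filaments are bundled by alpha-actinin and filamin and tied to integrins at focal adhesions through talin, vinculin, parvins and PINCH proteins. In lung, this machinery serves leukocyte migration, the endothelial and epithelial barriers and the contraction of smooth muscle and myofibroblasts.

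Actin genes lay on both sides of 0. The measured subunits of the Arp2/3 complex and of capping protein were divided, and those of the WASH complex were not. Past the threshold, 17 of the 46 genes lay below 0 and 14 above 0, and 15 did not pass. The lowest means belonged to Capg, Tmsb10, Capzb and Tpm3 and the highest to Cfl2, Actr3, Lims2 and Gsn. Over all genes and unnamed features 23.9% passed below 0 and 25.8% above 0, or 49.6% in all, against 67.4% of the 46. At least 1.5-fold from 0 and past the threshold were 7 of the 46 below 0 and 6 above 0, against 7.16% and 9.4% of all. The median of the 46 means was 0.018, against −0.0066 over all, and its sign turned when mouse 1 was left out (−0.055). No set test was run on the 46 genes, so nothing is called particular to them. All measured arrays of a gene lay on 1 side of 0 for 33 of the 46 genes, against 57.3% of all.

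Because the same pool lies on every array, variation between control mice does not enter this test. When the pool was treated as a single control mouse that varies as the bleomycin mice do, 3 of the 46 genes passed, against 5.09% of all. In this setting 1 of the 46 genes passed below 0 and 2 above 0, against 2.11% and 2.98% of all. These were Arpc1b below 0, and Actr3 and Lims2 above 0. The other 28 calls were lost in that setting. With 5 arrays the smallest p of an exact sign-flip test is 0.0625. The p-values therefore come from the model over all genes, except where a plain one-sample test is named.

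**Figure D1:**
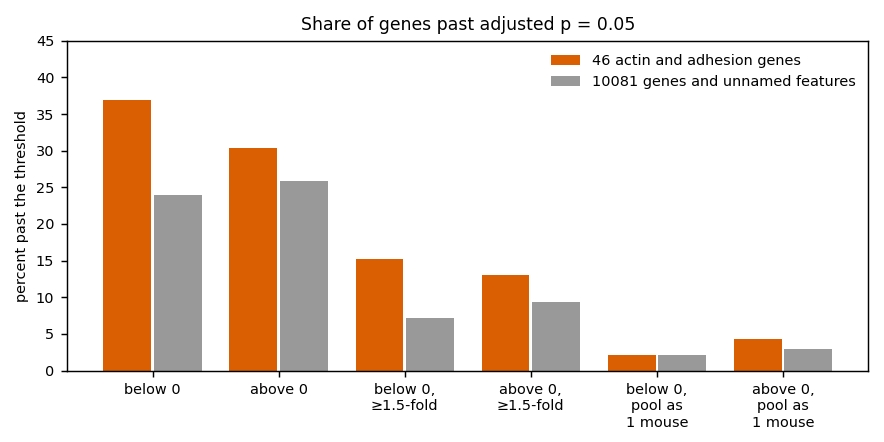
Percent of the 46 actin and adhesion genes (orange) and of all 10081 genes and unnamed features (grey) past an adjusted p of 0.05 by limma, below and above 0, with any size, at least 1.5-fold from 0, or with the pool as 1 control mouse. The orange bars stand above the grey ones in the first 4 pairs, for example 37% against 23.9% below 0, and the last pairs are 2.17% against 2.11% below 0 and 4.35% against 2.98% above 0.

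In the Arp2/3 complex, the actin-related subunit and a regulatory subunit lay on opposite sides. Actr3 (Arp3), which with Arp2 forms the base of the new branch, had log2 ratios of 0.84, 1.18, 1.14, 1.09 and 1.08 in mice 1 to 5. Arpc1b, a WD-repeat subunit prominent in blood cells, had log2 ratios of −0.80, −0.67, −0.52, −0.68 and −0.68 in mice 1 to 5. Every array was above 0 for Actr3 and below 0 for Arpc1b, and both were narrow. Actr3 averaged 1.06 ± 0.13 (SD, n = 5), a 2.09-fold difference (adjusted p = 4.22e-05, and 0.0162 with the pool as 1 control mouse). Arpc1b averaged −0.67 ± 0.098 (SD, n = 5), a 1.59-fold difference (adjusted p = 0.000143, and 0.0398 with the pool as 1 control mouse). On the same array Actr3 exceeded Arpc1b by 1.73 ± 0.089 (SD, n = 5) on the log2 scale.

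The remaining Arp2/3 subunits were closer to 0. Arpc5l, an alternative form of the Arpc5 subunit, averaged −0.32 ± 0.15 (SD, n = 5) and lay below 0 in every mouse (adjusted p = 0.00769). Arpc1a, the paralog of Arpc1b, had log2 ratios of 0.63, 0.37, 0.26, −0.35 and 0.39 in mice 1 to 5, so that mouse 4 alone was below 0. It did not pass (mean 0.26 ± 0.37, SD, n = 5; adjusted p = 0.138), but without mouse 4 its mean was 0.41 and it passed (adjusted p = 0.0077). Arpc1a exceeded Arpc1b on 5 of 5 arrays. Arpc4, a core subunit, averaged −0.13 ± 0.13 (SD, n = 5), with a 95% interval from −0.28 to 0.019.

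Both measured subunits of the WASH complex, which activates Arp2/3 on endosomes, lay below 0. Washc1, the subunit that binds Arp2/3, had log2 ratios of −0.64, −0.56, −0.56, −0.27 and −0.52 in mice 1 to 5 (mean −0.51 ± 0.14, SD, n = 5; adjusted p = 0.000865). Washc3, a further subunit, had log2 ratios of −0.46, −0.47, −0.59, −0.42 and −0.61 in mice 1 to 5 and averaged −0.51 ± 0.083 (SD, n = 5; adjusted p = 0.000347). Every mouse was below 0 for both subunits, and the 2 features of Washc3 averaged −0.67 and −0.35. On the same arrays the subunits differed by a mean of 0.0015 ± 0.13 on the log2 scale (SD, n = 5), Washc1 being higher on 3 and lower on 2. Wasf3, a WAVE protein of lamellipodia, had log2 ratios of 0.055, 0.016, 0.21, 0.09 and 0.17 in mice 1 to 5, averaged 0.11 ± 0.082 (SD, n = 5) and did not pass (adjusted p = 0.121).

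The diaphanous formins, which lengthen unbranched filaments, did not pass. Diaph2 had log2 ratios of −1.45, −0.014, −0.084, 0.081 and −0.81 in mice 1 to 5, with mice 1 and 5 low and the others near 0 (mean −0.46 ± 0.66, SD, n = 5; adjusted p = 0.134). Diaph3 had log2 ratios of 0.20, −0.028, 0.008 and −0.11 in mice 1, 2, 3 and 4, on both sides of 0, and averaged 0.018 ± 0.13 (SD, n = 4), with a 95% interval from −0.15 to 0.19.

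The beta-thymosins, small proteins that sequester actin monomers, stood apart from each other. Tmsb10 had log2 ratios of −0.97, −1.88, −1.17, −0.48 and −0.72 in mice 1 to 5, a mean of −1.04 ± 0.54 (SD, n = 5) and a 2.06-fold difference (adjusted p = 0.00362). Tmsb4x had log2 ratios of 0.15, 0.65, 0.17, 0.54 and 0.19 in mice 1 to 5 and a mean of 0.34 ± 0.24 (SD, n = 5; adjusted p = 0.0186). No value of Tmsb10 reached the lowest value of Tmsb4x, and Tmsb4x was higher on 5 of 5 arrays, by 1.38 ± 0.66 (SD, n = 5). The call of Tmsb4x was lost without mouse 2 (adjusted p = 0.053) or mouse 4 (adjusted p = 0.0584). Pfn2, a profilin most abundant in neurons, averaged 0.26 ± 0.23 (SD, n = 5), with mouse 1 below 0 at −0.085. At adjusted p = 0.0471 it passed, but not without mouse 2, 3, 4 or 5 (adjusted p = 0.095, 0.138, 0.0894 and 0.139).

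Proteins that cut or cap filaments held the extremes on both sides. Cfl2, the muscle form of cofilin, which severs old filaments, had log2 ratios of 0.95, 1.41, 1.88, 1.65 and 0.89 in mice 1 to 5. All mice were far above 0, with mice 1 and 5 lowest. Its mean was 1.36 ± 0.43 (SD, n = 5), a 2.56-fold difference (adjusted p = 0.000504, but 0.0921 with the pool as 1 control mouse). Gsn, gelsolin, which severs and caps filaments when calcium rises, had log2 ratios of 0.97, 0.78, 1.34 and 0.86 in mice 2 to 5 and a mean of 0.99 ± 0.25 (SD, n = 4; adjusted p = 0.000692). Mouse 4 was highest and the others lay close together. Capg, a capping protein of the gelsolin family abundant in macrophages, had log2 ratios of −1.27, −1.24, −2.42, −0.48 and −0.42 in mice 1 to 5. Mouse 3 was lowest and mice 4 and 5 were nearest to 0. Its mean was −1.17 ± 0.81 (SD, n = 5), a 2.24-fold difference (adjusted p = 0.0117), and it missed the threshold with a plain one-sample test (adjusted p = 0.0699).

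The subunits of capping protein, an obligate dimer of 1 alpha and 1 beta chain, did not share a side. Capzb, the beta chain, had log2 ratios of −1.34, −0.60, −0.64, −0.73 and −1.06 in mice 1 to 5 and a mean of −0.87 ± 0.32 (SD, n = 5; adjusted p = 0.00104). Capza2, an alpha chain, had log2 ratios of 0.39, 0.83, 0.48, 0.85 and 0.28 in mice 1 to 5 and a mean of 0.56 ± 0.26 (SD, n = 5; adjusted p = 0.00322). The 2 genes did not overlap, and Capza2 exceeded Capzb by 1.44 ± 0.23 (SD, n = 5). Capza1, the other common alpha chain, averaged −0.19 ± 0.076 (SD, n = 5) and lay below 0 in every mouse. At adjusted p = 0.0203 it passed, but not without mouse 2, 3 or 4 (adjusted p = 0.0539, 0.0575 and 0.0638). Capza2 exceeded Capza1 on 5 of 5 arrays, by 0.75 ± 0.32 (SD, n = 5). Capza3, a chain of male germ cells, averaged 0.079 ± 0.14 (SD, n = 4) on 4 arrays and did not pass (adjusted p = 0.4).

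Both Ena/VASP proteins, which keep filament ends growing at the leading edge and at adhesions, lay above 0. Enah (Mena) had log2 ratios of 0.66, 1.18, 0.88, 1.07 and 0.50 in mice 1 to 5, a mean of 0.86 ± 0.28 (SD, n = 5) and a 1.81-fold difference (adjusted p = 0.000718). Vasp averaged 0.26 ± 0.16 (SD, n = 5), and it passed at adjusted p = 0.0173, but not without mouse 3 (adjusted p = 0.0518). Enah exceeded Vasp on 5 of 5 arrays and their values did not overlap.

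**Figure D2:**
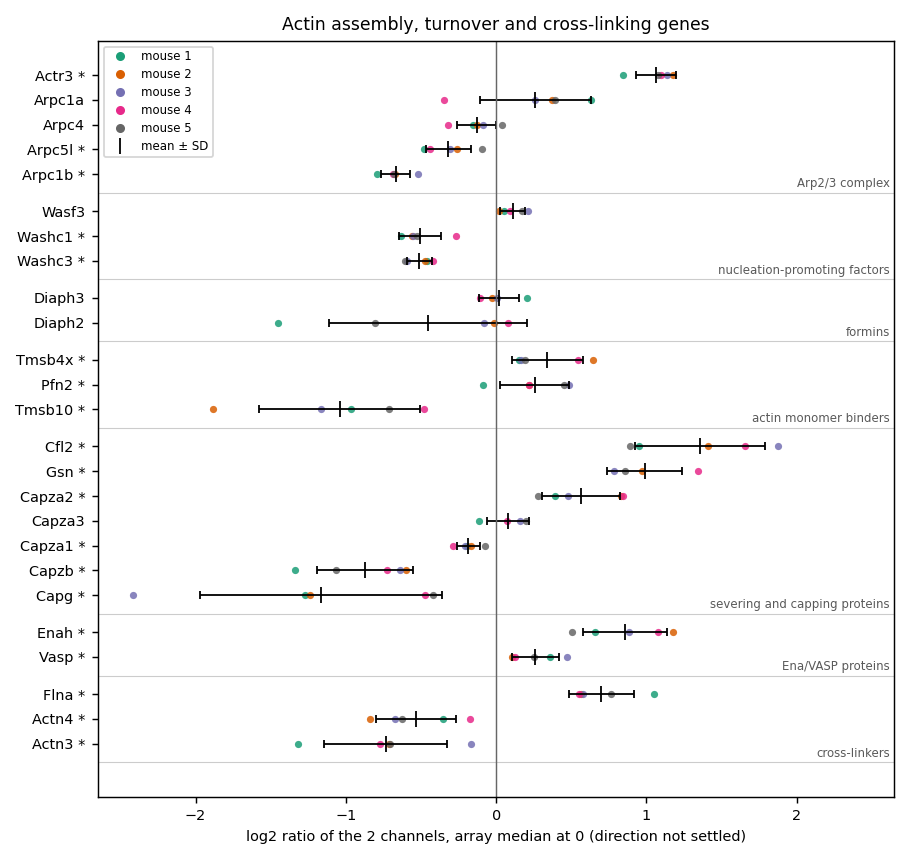
Log2 ratio of each actin assembly, turnover and cross-linking gene on each array (coloured points, 1 per mouse), with mean ± SD in black, ordered by role. Asterisks mark genes past an adjusted p of 0.05, and Actr3 and Arpc1b show the narrow spread on opposite sides of 0 given in the text.

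Cross-linkers also divided. Flna, filamin A, which joins filaments into networks and binds integrins, had log2 ratios of 1.05, 0.56, 0.58, 0.55 and 0.77 in mice 1 to 5. Every mouse was above 0 and mouse 1 was highest (mean 0.70 ± 0.21, SD, n = 5, a 1.63-fold difference; adjusted p = 0.000699). Actn4, the non-muscle alpha-actinin, averaged −0.53 ± 0.26 (SD, n = 5), with all mice below 0 between −0.84 and −0.18 (adjusted p = 0.00433). Actn3, the alpha-actinin of fast skeletal muscle fibres, had log2 ratios of −1.32, −0.71, −0.17, −0.77 and −0.71 in mice 1 to 5, a mean of −0.74 ± 0.41 (SD, n = 5) and a 1.67-fold difference (adjusted p = 0.00544). Mouse 1 was lowest and mouse 3 nearest to 0.

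At focal adhesions, vinculin and zyxin lay close to 0 and Lims2 stood away from it. Vcl, vinculin, which reinforces the link under tension, averaged 0.017 ± 0.13 (SD, n = 5), with a 95% interval from −0.13 to 0.16, and turned to −0.033 without mouse 4. Zyx, zyxin, which gathers at strained filaments, averaged −0.15 ± 0.15 (SD, n = 5) and did not pass (adjusted p = 0.0945), but did without mouse 3 at a mean of −0.21 (adjusted p = 0.0473). Tln1, the talin that activates integrins in most cells, had log2 ratios of −0.61, −0.39, −0.41 and −0.13 in mice 2 to 5 and a mean of −0.39 ± 0.20 (SD, n = 4; adjusted p = 0.0128). It missed the threshold with a plain one-sample test (adjusted p = 0.0658). Tln2, its paralog, averaged 0.11 ± 0.14 (SD, n = 5) and did not pass (adjusted p = 0.197). Tln2 exceeded Tln1 on 4 of the 4 arrays with both, by 0.44 ± 0.10 (SD, n = 4). Parvb, a parvin that binds integrin-linked kinase, averaged 0.21 ± 0.15 (SD, n = 4) on 4 arrays and did not pass (adjusted p = 0.0592).

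The PINCH proteins Lims1 and Lims2 tie integrin-linked kinase to the adhesion. Lims2 had log2 ratios of 0.88, 0.98, 1.11, 1.18 and 1.03 in mice 1 to 5, a mean of 1.04 ± 0.12 (SD, n = 5) and a 2.05-fold difference (adjusted p = 3.62e-05, and 0.0143 with the pool as 1 control mouse). Its spread was among the narrower of the 46 genes and every mouse was well above 0. Lims1 had log2 ratios of 0.14, 1.12, 0.45, 2.33 and 0.12 in mice 1 to 5, all above 0 but spread widely by mice 2 and 4. It did not pass (mean 0.83 ± 0.93, SD, n = 5; adjusted p = 0.0641). A second Lims1 feature, left out because it had values on 3 arrays, read 0.22, 0.34 and 0.28 in mice 1 to 3.

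The PDZ-LIM proteins link alpha-actinin to signalling kinases. Pdlim3, found in muscle, had log2 ratios of 0.37, 0.22, 0.13, 0.60 and 0.49 in mice 1 to 5 and a mean of 0.36 ± 0.19 (SD, n = 5; adjusted p = 0.00838). Pdlim1 ranged from −0.402 in mouse 4 to 0.645 in mouse 1 and averaged 0.031 ± 0.40 (SD, n = 5), with a 95% interval from −0.30 to 0.36. Its mean turned to −0.12 without mouse 1.

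Of 11 unconventional myosins, motors that move membranes and organelles along actin, 5 passed the threshold below 0 and 3 above 0. Of all genes and unnamed features 23.9% passed below 0 and 25.8% above 0. The other 3 myosins did not pass. Farthest below 0 was Myo1c, which tethers membranes to actin, with log2 ratios of −0.92, −0.27, −0.54, −0.65 and −0.75 in mice 1 to 5 (mean −0.63 ± 0.24, SD, n = 5, a 1.54-fold difference; adjusted p = 0.00169). Myo7a, a motor of sensory hair cells and retinal pigment cells, averaged −0.48 ± 0.16 (SD, n = 5) and Myo19, a motor of mitochondria, −0.41 ± 0.12 (SD, n = 5), with adjusted p = 0.0016 and 0.00146. Every mouse was below 0 for these 3 myosins.

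Myo7b, a motor of the epithelial brush border, averaged −0.23 ± 0.13 (SD, n = 5) and missed the threshold without mouse 4 (adjusted p = 0.0539, against 0.0182 with all mice). Myo1f, a motor of leukocytes, averaged −0.18 ± 0.11 (SD, n = 5), and passed at adjusted p = 0.0367, but not without mouse 1, 3, 4 or 5 (adjusted p = 0.0825, 0.0724, 0.0829 and 0.109). Farthest above 0 was Myo18a, a myosin of the Golgi and of actomyosin bundles, with log2 ratios of 0.44, 0.12, 0.53, 0.39 and 0.91 in mice 1 to 5 (mean 0.48 ± 0.29, SD, n = 5; adjusted p = 0.00887). Myo5c, a class V motor of epithelial secretory vesicles, averaged 0.47 ± 0.31 (SD, n = 5), with mouse 1 highest at 0.96 (adjusted p = 0.0126). With a plain one-sample test Myo18a and Myo5c missed the threshold (adjusted p = 0.0514 and 0.0633).

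Myo1e, a class I motor at sites of endocytosis and adhesion, averaged 0.29 ± 0.27 (SD, n = 5; adjusted p = 0.0468), and its call was lost without mouse 1, 2, 4 or 5 (adjusted p = 0.12, 0.0739, 0.0586 and 0.134). It exceeded its relative Myo1c on 5 of 5 arrays without overlap, by 0.92 ± 0.47 (SD, n = 5). Not past the threshold were Myo5a, a carrier of vesicles and pigment granules (mean −0.26 ± 0.47, SD, n = 5), and the hair-cell motors Myo3a and Myo15 (means −0.15 ± 0.10, SD, n = 5 and 0.063 ± 0.12 (SD, n = 5)). Myo5a was at −1.02 in mouse 1 and between −0.33 and 0.13 in the other 4 mice.

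Tpm3, a tropomyosin gene whose products line filaments in slow muscle fibres and in non-muscle cells, varied most among the genes called below 0. Its log2 ratios were −2.17, −1.11, −0.40, −0.037 and −0.56 in mice 1 to 5, with mouse 1 lowest and mouse 4 near 0. The mean was −0.86 ± 0.83 (SD, n = 5), a 1.81-fold difference (adjusted p = 0.0408). The call was lost without mouse 2, 3 or 5 (adjusted p = 0.11, 0.0593 and 0.073), and without mouse 1 the mean was −0.53 (adjusted p = 0.04).

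**Figure D3:**
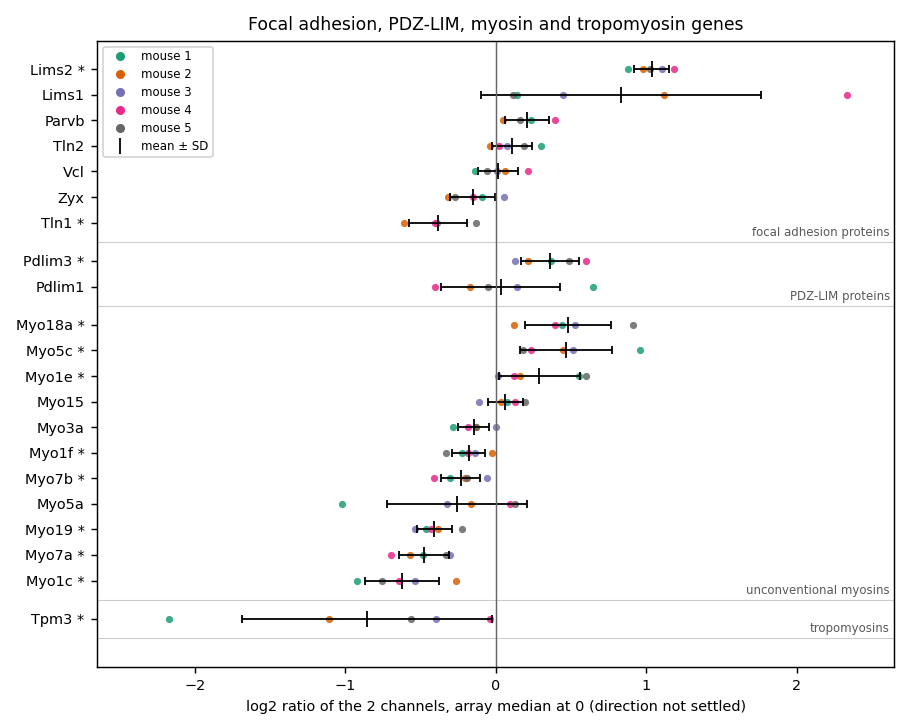
Log2 ratio of each focal adhesion, PDZ-LIM, unconventional myosin and tropomyosin gene on each array (coloured points, 1 per mouse), with mean ± SD in black, ordered by role. Asterisks mark genes past an adjusted p of 0.05, and Lims2 is narrow around 1.04 while Lims1 and Tpm3 are spread widely.

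**Figure D4:**
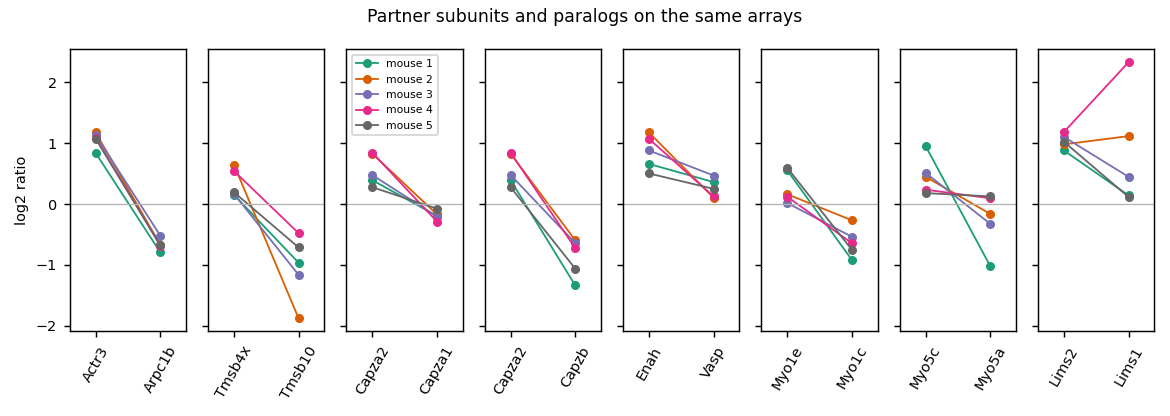
Log2 ratios of subunits of a complex or paralogs, each line joining the values of 1 mouse on 1 array. Actr3 lay above Arpc1b, Tmsb4x above Tmsb10 and Capza2 above Capzb in all 5 mice, whereas Lims2 exceeded Lims1 in 3 of 5.

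The mice differed widely in several genes that muscle also expresses. The median log2 ratio of 22 measured skeletal and cardiac muscle markers was −2.93, −1.24, 0, 0.0995 and −1.47 in mice 1 to 5. Each median takes only the markers with a value in that mouse. Of these markers 11 passed the threshold below 0 and 5 above 0, against 23.9% and 25.8% of all genes and unnamed features. The other 6 did not pass. Tnnc2, fast troponin C, and the myosins Myh8 and Myh2 were lowest, at −3.74, −3.44 and −3.03. On the other side were the atrial myosin chain Myl4, the alpha cardiac myosin Myh6 and cardiac actin, Actc1, at 1.57, 1.94 and 1.55. These cardiac genes lay above 0 on every array with a value, Myh6 between 1.47 and 2.55. Tpm3 and the marker median were both lowest in mouse 1. Tpm3 was highest in mouse 4, and Actn3 was lowest in mouse 1 and highest in mouse 3. The marker medians of mice 3 and 4 cannot be ranked, because they cover different markers. Tnni1 and Tnni2, with means below 0, had no value in mouse 4, and Actc1 and Casq1, with means above 0, had none in mouse 3. Cfl2 and Pdlim3, which muscle also expresses, lay above 0 in every mouse. The part of muscle tissue in these values was not tested.

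**Figure D5:**
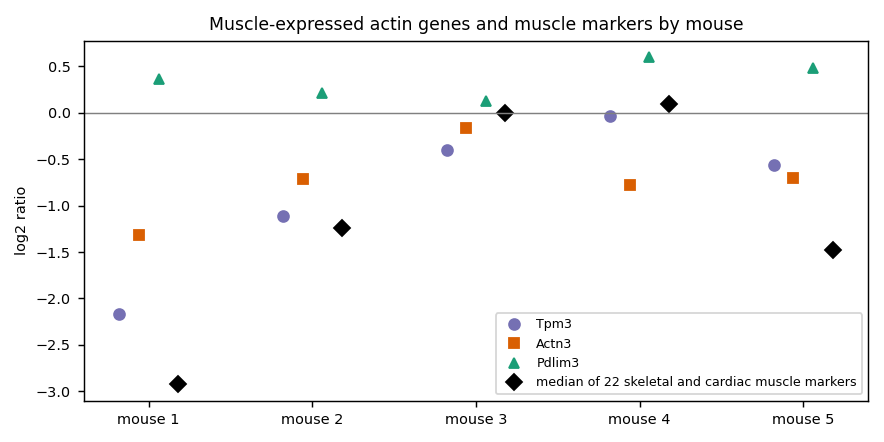
Log2 ratio by mouse of Tpm3, Actn3 and Pdlim3 and the median of 22 skeletal and cardiac muscle markers. The marker median, over the markers with a value in each mouse, is −2.93 in mouse 1, where Tpm3 is −2.17, and Pdlim3 stays above 0.

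Markers of other cells were also called. Of 19 leukocyte markers 12 passed the threshold below 0, 1 passed above 0 and 6 did not pass, against 23.9% below 0 and 25.8% above 0 of all genes, with array medians from −0.59 to −0.32. The complement chains C1qb and C1qa and the Fc receptor chain Fcer1g were lowest, at means of −2.68, −2.11 and −1.99, and Alox5ap, of leukotriene synthesis, lay above 0 at 0.56. Ptprc, the pan-leukocyte antigen CD45, averaged −0.074 ± 0.17 (SD, n = 5; adjusted p = 0.427). Among the 46, some genes that blood cells express were picked by hand. Of these, Capg, Arpc1b and Myo1f passed below 0, whereas Tmsb4x and Vasp passed above 0. No list defined them, so their sides do not describe the actin genes of blood cells as a set. Myo1f did not pass without mouse 1, 3, 4 or 5, Tmsb4x without mouse 2 or 4, nor Vasp without mouse 3.

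Of 11 endothelial markers 9 passed above 0, 0 below and 2 did not pass, against 25.8% above 0 and 23.9% below 0 of all. Array medians of these markers ran from 0.37 to 0.95, and Pecam1, Tmem100 and Tek were highest, at 2.45, 2.32 and 1.54. Of 20 alveolar and airway epithelial markers 10 passed above 0, 3 below and 7 did not pass, against the same shares of all. Surfactant protein A (Sftpa1), Rtkn2 and Ager were highest, at 2.41, 1.93 and 1.46, and the keratins Krt18 and Krt8 and the ciliary factor Foxj1 were below 0, at −1.54, −0.21 and −0.32. Of 9 genes listed as smooth muscle markers 2 passed above 0 and 1 below 0, against 25.8% and 23.9% of all, and 6 did not pass. Acta2 at 0.71 and Casq2, a calsequestrin that heart muscle also expresses, at 0.39 passed above 0, and Tagln at −0.44 passed below 0. The part of these cells in the actin genes was not tested.

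Of 47 further genes of the actin pathway, 21 passed the threshold above 0, 13 passed below 0 and 13 did not pass, against 25.8% above 0 and 23.9% below 0 of all. Their median was 0.051, against −0.0066 over all genes. Farthest above 0 was Rdx, radixin, which anchors actin to the membrane, at 1.77 ± 0.16 (SD, n = 5; adjusted p = 1.96e-05). Next were Tmod3, a tropomodulin that caps the slow filament end, at 1.41 ± 0.30, and Dstn, destrin, a severing protein of the cofilin family, at 1.396 ± 0.11. Dstn thus lay on the same side as Cfl2. Farthest below 0 were Rac2, the Rac GTPase of blood cells, at −1.01 ± 0.20, and Arhgdib, its partner inhibitor in the same cells, at −0.81 ± 0.20. Tagln2, a calponin-like binder of actin, was at −0.66 ± 0.43. With the pool as 1 control mouse, 4 of the 47 passed above 0 and 1 below 0, against 2.98% and 2.11% of all.

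Serum response factor, a regulator of many actin genes, binds the CArG box. The 250 bases before each gene's start were searched on both strands for its exact form, CCWWWWWWGG, with W as A or T. Forms with a mismatch and sites outside these bases were not searched. The windows come from RefSeq on build GRCm38.p6 and were found for 40 of the 46 genes, several with more than 1 start. The exact CArG box was in a window of 3 of the 40 genes, against 1.57% of the 7189 measured genes with a window. These genes were vinculin, Myo1e and Arpc4, whose mean log2 ratios were 0.017, 0.29 and −0.13, of which Myo1e alone passed the threshold. Their windows are shown 5′ to 3′ on the strand of the gene, with the box in capitals, because they show where it lies (227, 32 and 250 bases before the start, counted to its first base). They are chr14:20929148-20929397 on the plus strand, chr9:70207100-70207349 on the plus strand and chr6:113377863-113378112 on the plus strand.
Vcl: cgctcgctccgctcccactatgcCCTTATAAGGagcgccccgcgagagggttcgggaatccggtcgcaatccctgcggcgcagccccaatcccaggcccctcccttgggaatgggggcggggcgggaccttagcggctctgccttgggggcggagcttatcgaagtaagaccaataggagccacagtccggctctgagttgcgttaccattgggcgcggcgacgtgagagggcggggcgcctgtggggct
Myo1e: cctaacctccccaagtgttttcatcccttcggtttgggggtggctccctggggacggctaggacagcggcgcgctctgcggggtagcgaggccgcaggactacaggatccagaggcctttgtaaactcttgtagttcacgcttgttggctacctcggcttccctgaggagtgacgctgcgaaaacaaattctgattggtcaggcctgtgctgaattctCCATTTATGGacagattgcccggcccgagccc
Arpc4: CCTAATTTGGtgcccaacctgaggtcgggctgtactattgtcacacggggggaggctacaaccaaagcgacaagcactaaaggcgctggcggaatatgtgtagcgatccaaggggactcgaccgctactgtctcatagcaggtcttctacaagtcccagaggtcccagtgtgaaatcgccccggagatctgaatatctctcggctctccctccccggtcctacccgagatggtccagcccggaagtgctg

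The windows of Actr3 and Arpc1b are shown because these subunits of 1 complex lay on opposite sides of 0 on every array. Capitals mark GGGCGG on either strand (CCGCCC where it lies on the other strand), the core of the GC box bound by Sp1. It was found 1 time before Actr3 and 7 times before Arpc1b, and in 29 of the 40 genes with a window, against 57.9% of the measured genes. TATAAA was in a window of 2 of the 40 genes, against 10.1%, and CCAAT in 9, against 40%. The windows are chr1:125435728-125435977 on the minus strand and chr5:145114006-145114255 on the plus strand. A match describes these letters alone and says nothing of binding.
Actr3: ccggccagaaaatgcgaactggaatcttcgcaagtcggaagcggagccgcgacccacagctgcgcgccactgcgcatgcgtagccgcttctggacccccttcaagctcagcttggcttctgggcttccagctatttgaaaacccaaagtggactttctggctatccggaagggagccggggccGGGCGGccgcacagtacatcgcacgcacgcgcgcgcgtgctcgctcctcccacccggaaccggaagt
Arpc1b: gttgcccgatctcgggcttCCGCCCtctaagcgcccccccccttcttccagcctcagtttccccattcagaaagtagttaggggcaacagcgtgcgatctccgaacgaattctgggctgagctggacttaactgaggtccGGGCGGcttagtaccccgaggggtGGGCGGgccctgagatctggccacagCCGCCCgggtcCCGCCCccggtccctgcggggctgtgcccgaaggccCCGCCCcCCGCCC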

How the data were processed

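Lung RNA of 5 bleomycin-treated 129svJ mice was measured against 1 control pool on 5 2-colour arrays. Each feature has a deposited log ratio on each array, taken as log2; per the file headers and labels, neither log base, direction, normalization nor genome build is given in the sources used here. The arrays held values for 11350 to 12083 of 17280 features, the deposited medians lay between 0.011 and 0.026, and array medians were then set to 0. Scanner intensities were not used here, so the number of arrays limits the precision.

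Symbols came from the platform annotation and were updated with RefSeq gene names (assembly GRCm38.p6), to which 14445 of 14723 annotated features could be matched; none of the 46 names changed. Features on at least 4 arrays (10702) were averaged per symbol, giving 10081 genes and unnamed features, 9039 with a symbol. Of the 46 genes, 1 (Washc3) averaged more than 1 feature. Each mean log2 ratio was set against 0 by limma 3.58.1 under R 4.3.3 (two-sided, moderated variances, intercept alone, p-values adjusted over all 10081 by Benjamini-Hochberg), a procedure tested on simulated data. Intervals are 95% intervals from the same fit. The labels name no dye swap, so a dye bias of a gene would remain in its ratio. p-values measure the spread between the bleomycin mice and leave out that between control mice.

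The genes and lists were chosen with earlier results of these data known. Each of the 46 genes is named, with its array values where it passed at least 1.5-fold from 0 or was farthest from 0 on its side in its role, and of 6 marker and pathway lists the 3 genes past the threshold farthest from 0 on each side. Further array values and the pairs of genes set side by side were chosen after their values were seen. Alternatives changed the array minimum, centring, scaling, test, symbol update and averaging, counted the pool as 1 control mouse, required 1.2-fold, or left out each mouse.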

Additional observations from a re-analysis of the deposited data

How the results depend on the processing

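Leaving out any 1 mouse gave 14 to 16 of the 46 actin and adhesion genes past the threshold below 0 and 11 to 13 above 0, against 17 and 14 with all mice. Of the 31 calls, 23 held in all 5 of these fits and 8 were lost in at least 1. The median of the 46 means ran from −0.055 to 0.024 over these fits and was −0.13 for genes measured on all 5 arrays. Means near 0 changed side: Diaph3 ran from −0.043 to 0.061 and Pdlim1 from −0.12 to 0.14 over these fits, both below 0 only without mouse 1, and Vcl from −0.033, without mouse 4, to 0.056. With arrays scaled to 1 spread, Pdlim1 was at −0.00397. Counting the pool as 1 control mouse left 513 genes of all 10081, against 5002, and 1 of the 46 below 0 and 2 above 0, with 3 at least 1.5-fold from 0, against 13. Requiring a difference of 1.2-fold left 1847 genes of all, and 8 below 0 and 7 above 0 of the 46. A plain one-sample test left 3866 genes of all, and 13 below 0 and 8 above 0 of the 46. In the settings without centring, with arrays scaled, with robust moderation, with platform symbols, with the median of features, or with features on at least 3 or all 5 arrays, no call of a measured member was lost. The cause of these changes was not tested. No paired analysis was possible because the study has 1 group. With 5 arrays and 1 pool, log2 ratios whose interval spans 0 could not be placed on a side.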

Other observations

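Of the 22 actin and adhesion genes left out for too few values, 8 had none on any array, namely Lasp1, Myo9b, Parva, Pdlim7, Pfn4, Pxn, Tlnrd1 and Tmsb15a. Genes with values on 3 arrays were the nearest to being kept. Arpc5, a subunit of the Arp2/3 complex, had log2 ratios of −0.20, −0.27 and −0.503 in mice 1, 2 and 4. Wasl, the activator of Arp2/3 found in most cells, had −0.037, −0.25 and −0.17 in mice 2, 4 and 5. Parvg, the parvin of blood cells, had 0.16, 0.51 and 0.036 in mice 2 to 4, and Pdlim5, a PDZ-LIM protein of muscle, had 0.14, 0.11 and 0.17 in the same mice. The 5 kept genes with values on 4 arrays were Diaph3, Capza3, Gsn, Tln1 and Parvb, with means of 0.018, 0.079, 0.99, −0.39 and 0.21.

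Fewer arrays measured the most widely expressed forms of some families. Cfl1, the cofilin of non-muscle cells, had log2 ratios of −0.58 and −0.401 in mice 1 and 2, on the other side of 0 from Cfl2. Actn1, a non-muscle alpha-actinin, had −0.049 and 0.004 in mice 2 and 3, and Evl, an Ena/VASP protein of blood cells, −0.102 and −0.13 in mice 1 and 2. Pfn1, the common profilin, had 0.026 in mouse 2 and Diaph1, a diaphanous formin, −0.503 in mouse 4. Myo10, Myo18b, Myo1a, Pdlim4 and Wasf1 also had 1 value each, between −0.028 and 0.27. None of these 22 genes entered the test, but with features on at least 3 arrays the 46 genes became 50, of which 18 passed below 0 and 14 above 0.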
